A study of Danio rerio with 17 samples.

Results

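Mitochondrial fatty acid oxidation was followed through 10 zebrafish genes that carry long-chain fatty acids into mitochondria and break them down there. They are cpt1aa, cpt1ab, cpt2, acadvl, acadl, acadm, hadhaa, hadhb, etfa and etfdh. Each was taken as the probe set whose single gene symbol is that gene, and where there were several, as the one with the highest mean over all arrays. All 10 were found among the 20908 genes that the array annotation names in this way, and cpt1aa, acadl and acadm had more than 1 probe set. Their mean signals stood between the 82.3 and 98.3 percentile of those genes, above most genes of the array.

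Long-chain fatty acids enter mitochondria as carnitine esters. Carnitine palmitoyltransferase 1, in the outer membrane, makes the ester and is the step that malonyl-CoA, the building block of fatty acid synthesis, inhibits. Carnitine palmitoyltransferase 2, in the inner membrane, turns the ester back into acyl-CoA. Each round of beta-oxidation then starts with an acyl-CoA dehydrogenase, goes on with hydration, a second oxidation and thiolytic cleavage, and passes its first electrons through electron transfer flavoprotein and its dehydrogenase to ubiquinone. In the liver the acetyl-CoA that results feeds the citric acid cycle and ketone bodies, and the genes of the pathway are known targets of the nuclear receptor Ppara, which is activated in fasting.

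The livers came from 17 transgenic fish samples, 1 array each, of fish labelled female with an age of 6 months. The HBx,src,p53-/+ line, heterozygous for p53, gave 3 arrays of overfed fish given OF (DIO+OF), 3 of overfed fish (DIO) and 2 of fish on the normal diet (NOR). The HBx,src line gave 3, 3 and 3. OF is Oligo-Fucoidan, fucoidan of low molecular weight made from a brown seaweed, and the fish received 300 mg/kg through a gavage tube. Fish of both lines, NOR included, carry the hepatitis B virus X antigen and src, both driven by the liver promoter fabp10a, so no group is free of the oncogenes. DIO fish received about 83 mg and NOR fish about 6.9 mg of Artemia cysts each day. DIO and NOR fish are labelled as mock, without saying whether they were gavaged, so OF cannot be told apart from the gavage and its anesthesia. The HBx,src,p53-/+ arrays are labelled batch 2 and the HBx,src arrays batch 1, and with 1 batch for each line these cannot be told apart. Signal levels were therefore not compared between the lines, and changes were taken within a line. The difference of such changes between the lines was also tested, and there too line and batch cannot be told apart.

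Values below are the deposited log2 signals. A log2 fold change is given with its standard error, and a gene was called at an adjusted p under 0.05 in limma, adjusted over all 75212 probe sets of the array. The labels do not say that each sample was 1 fish, and the p-values measure only the spread between these samples. Array medians were 2.552 to 2.684 in HBx,src,p53-/+ and 2.095 to 2.212 in HBx,src. All 8 liver markers were among the brightest genes, fabp10a at 12.08 to 13.26 in HBx,src,p53-/+ and 12.27 to 12.74 in HBx,src. One array stood apart: HBx,src,p53-/+ DIO+OF replicate 3 had a signal of 2.76 for vtg2, a yolk protein gene of female liver, whose median was 13.92 over the arrays of its line, and which was at 13.75 or above in every HBx,src array. The other female liver markers vtg3, vtg6, vtg7 and esr1 had lowest values of 2.07, 3.22, 4.36 and 5.89 in this line. Their medians there were 13.57, 13.52, 13.55 and 10.54. The lowest array median over the 5 markers in the DIO+OF group of this line was 3.22. The main counts over gene lists and the calls of DIO+OF against DIO in this line are therefore given with and without it. Other values that use it, such as correlations, other probe sets of a gene and most counts by the study's threshold, are given only with it.

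With OF in HBx,src,p53-/+ livers, all 10 genes had a higher mean in DIO+OF than in DIO, with a median log2 fold change of 0.81, against 0.04 over all genes. Of all genes, 53.9% lay above 0. Among the 10, etfdh passed the test and rose. In 7 genes, acadvl, acadl, acadm, hadhaa, hadhb, etfa and etfdh, every DIO+OF array lay above every DIO array. Such a separation was seen in 15% of all genes, and 1.71% of all genes were called higher. The 3 that overlapped were the carnitine palmitoyltransferases cpt1aa, cpt1ab and cpt2. Without replicate 3 of DIO+OF the median was 0.67, 9 of the 10 were above 0, and the arrays of 7 genes were still separate, as they then were in 19% of all genes, while none was called in limma and 4 had an unadjusted p under 0.05, as did 13.4% of all genes. By gene, the changes without it were 0.19 ± 0.18 for acadm, 0.61 ± 0.43 for acadvl, 0.84 ± 0.26 for acadl, 0.90 ± 0.30 for hadhaa, 1.18 ± 0.55 for hadhb and 0.63 ± 0.27 for etfa, and 0.67 ± 0.58 for cpt1ab and -0.24 ± 0.36 for cpt2.

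With OF in HBx,src livers the median over the 10 genes was 0.06, against -0.01 over all genes, with 5 above and 5 below 0, where 48.7% of all genes lay above 0. The largest change was that of cpt1aa, which passed the test and rose 5.36-fold in DIO+OF, when 0.488% of all genes were called higher. The arrays of cpt1aa and cpt2 were higher without overlap and those of acadl lower without overlap, compared with 9.66% of all genes higher and 8.55% lower.

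**Figure D1:**
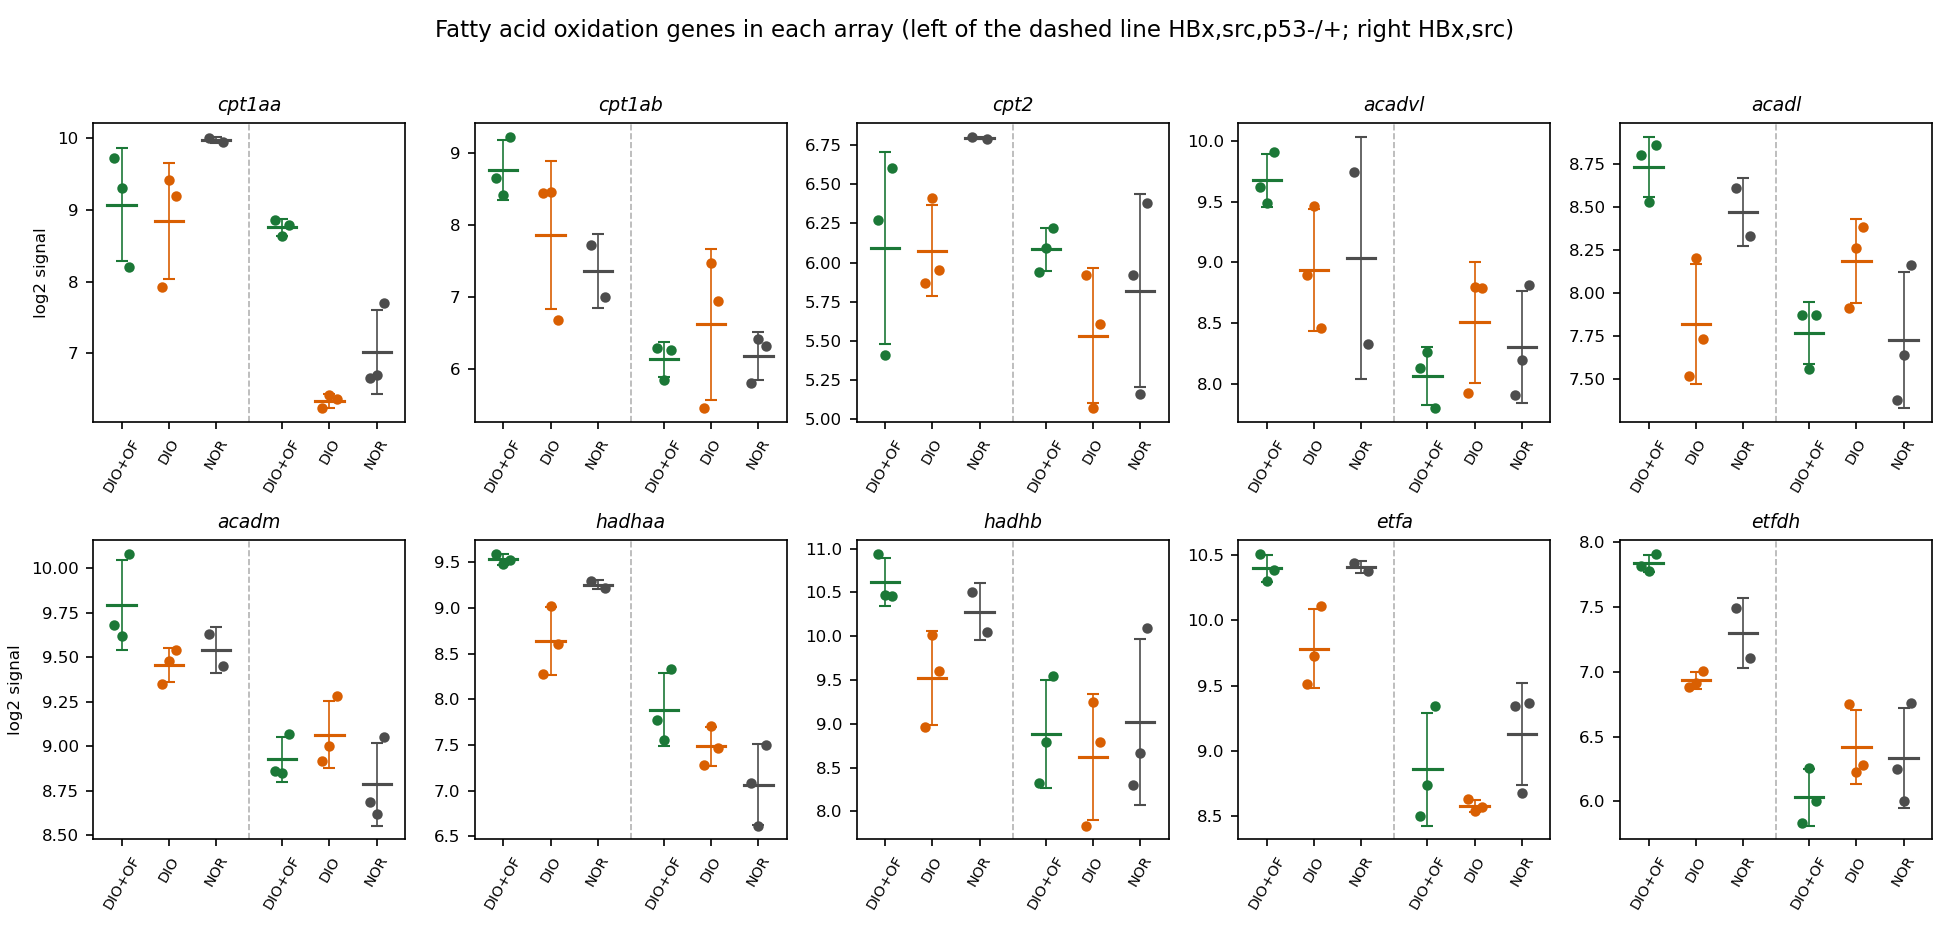
Log2 signal (vertical axis) of the 10 fatty acid oxidation genes in each array, with DIO+OF, DIO and NOR from left to right and HBx,src,p53-/+ left of HBx,src, where points are arrays, thick lines group means and bars SDs. In HBx,src,p53-/+ the DIO+OF points lie above all DIO points for 7 genes, and in HBx,src the 3 DIO+OF points of cpt1aa lie between 8.63 and 8.86, above all DIO and NOR points.

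Of the marker lists for liver, pancreas and ovary, some were separate between DIO+OF and DIO arrays and others overlapped. The muscle, red blood cell, intestine and female liver lists overlapped between DIO+OF and DIO arrays in both lines. In HBx,src,p53-/+ the median log2 signal of the 8 liver markers was 12.56 in DIO+OF replicate 3 and 12.12 in replicate 2, and 11.80 to 11.90 in DIO arrays, with DIO+OF replicate 1 between replicate 2 and the DIO arrays. In HBx,src it was 11.22 to 11.84 in DIO+OF arrays and 11.81 to 11.88 in DIO arrays. The 7 pancreatic markers matched had a median of 6.67 to 10.80 in DIO+OF and 8.50 to 10.39 in DIO arrays of HBx,src,p53-/+, against 4.18 to 4.61 in DIO+OF and 4.85 to 6.08 in DIO arrays of HBx,src. The 6 ovary markers had medians of 1.95 to 2.37 in DIO+OF and 2.79 to 3.76 in DIO arrays of HBx,src,p53-/+. In HBx,src they were 1.77 to 1.98 in DIO+OF and 2.09 to 2.13 in DIO arrays, near or below the array medians of that line, 2.095 to 2.212. The part of these shifts in the results was not tested. In whole liver, fewer cells of a type and less RNA per cell cannot be told apart.

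The carnitine shuttle holds the first 3 of the 10 genes. The gene cpt1aa encodes a liver-type carnitine palmitoyltransferase 1. In HBx,src its log2 signals were 8.86, 8.63 and 8.79 in DIO+OF arrays, 6.23, 6.42 and 6.36 in DIO arrays and 6.66, 6.69 and 7.70 in NOR arrays. The DIO+OF arrays were all higher than the other 6, and the DIO arrays were all lower than the NOR arrays. The rise over DIO was 2.42 ± 0.42 on the log2 scale (n = 3 and 3, adjusted p = 0.0277 in limma). The call was lost when the HBx,src arrays were fitted alone (adjusted p = 0.0725), and without DIO replicate 1, 2 or 3 or DIO+OF replicate 2 or 3 (adjusted p = 0.0682 to 0.108); the change was 2.37 to 2.48 in these refits. Over NOR the difference was 1.74 ± 0.42, which was not called (adjusted p = 0.185 in limma).

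Signals of cpt1aa in HBx,src,p53-/+ were 9.72, 9.31 and 8.20 in DIO+OF arrays, 7.92, 9.42 and 9.20 in DIO arrays and 10.01 and 9.95 in NOR arrays. DIO+OF and DIO overlapped, and both lay below NOR. The difference of DIO+OF from DIO was 0.23 ± 0.42 with an interval of -0.67 to 1.12 (95%), and without replicate 3, the lowest of the DIO+OF arrays, it was 0.66 ± 0.40. The change with OF was 2.20 lower on the log2 scale in HBx,src,p53-/+ than in HBx,src (-2.20 ± 0.59), a difference that missed the threshold (adjusted p = 0.109 in limma).

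The other probe sets of cpt1aa gave the same direction in HBx,src and another in HBx,src,p53-/+. In HBx,src the second and the third were higher in DIO+OF by 1.68 ± 0.40 and 1.39 ± 0.35, again with no overlap with DIO, at adjusted p = 0.0858 and 0.0994 in limma. In HBx,src,p53-/+ they gave -0.76 ± 0.40 and -0.89 ± 0.35, where the brightest gave 0.23. The third read 5.26, 4.61 and 4.49 in DIO+OF arrays of HBx,src,p53-/+, all below the 5.47, 5.52 and 6.04 of DIO arrays. For this probe set the difference between the lines passed the test, at -2.28 ± 0.49 (adjusted p = 0.0496 in limma). The direction of cpt1aa with OF in HBx,src,p53-/+ thus depended on the probe set, while all 3 had the same direction in HBx,src.

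Its paralog cpt1ab, also a carnitine palmitoyltransferase 1 gene, did not follow it. Signals of cpt1ab in HBx,src,p53-/+ were 8.65, 8.42 and 9.23 in DIO+OF arrays, 8.45, 8.46 and 6.68 in DIO arrays and 7.73 and 7.00 in NOR arrays. All DIO+OF arrays were above both NOR arrays (1.40 ± 0.58, not called, adjusted p = 0.243 in limma), and 1 DIO array was far below the other 2. Signals of cpt1ab in HBx,src were 6.29, 5.85 and 6.26 in DIO+OF arrays, 5.45, 7.48 and 6.94 in DIO arrays and 5.80, 6.41 and 6.32 in NOR arrays. Here again the DIO arrays disagreed with each other, replicate 1 being the lowest of the line and replicate 2 the highest. The change with OF was 0.90 ± 0.52 in HBx,src,p53-/+ and -0.49 ± 0.52 in HBx,src.

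The muscle-type paralog cpt1b, which is not one of the 10, varied most of the carnitine palmitoyltransferases. Signals of cpt1b in HBx,src,p53-/+ were 9.93, 9.98 and 10.71 in DIO+OF arrays, 6.96, 8.58 and 5.73 in DIO arrays and 6.72 and 3.73 in NOR arrays. The DIO+OF arrays were above all others of the line, by 3.11 ± 1.26 over DIO and 4.98 ± 1.41 over NOR, and neither was called (adjusted p = 0.260 and 0.0694 in limma). Signals of cpt1b in HBx,src were 6.46, 5.78 and 3.18 in DIO+OF arrays, 3.13, 8.06 and 7.95 in DIO arrays and 4.54, 6.23 and 5.26 in NOR arrays, with replicate 1 again the low DIO array. The other 7 matched muscle markers lay between 1.17 and 5.70 in all arrays. Across the 17 arrays, after subtracting each line's mean, cpt1b was among the 5 genes most like cpt1ab (Pearson r = 0.852), with slc44a5b (0.889), snx20 (0.854), tiam2a (0.838) and pcgf1 (0.835). The genes most like cpt1aa were syngr2a (0.946), fam20a (0.930), gja13.1 (0.915), tpst1 (0.913) and npdc1b (0.912), and no gene was in both lists of 5. These correlations describe arrays that share groups and line.

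**Figure D2:**
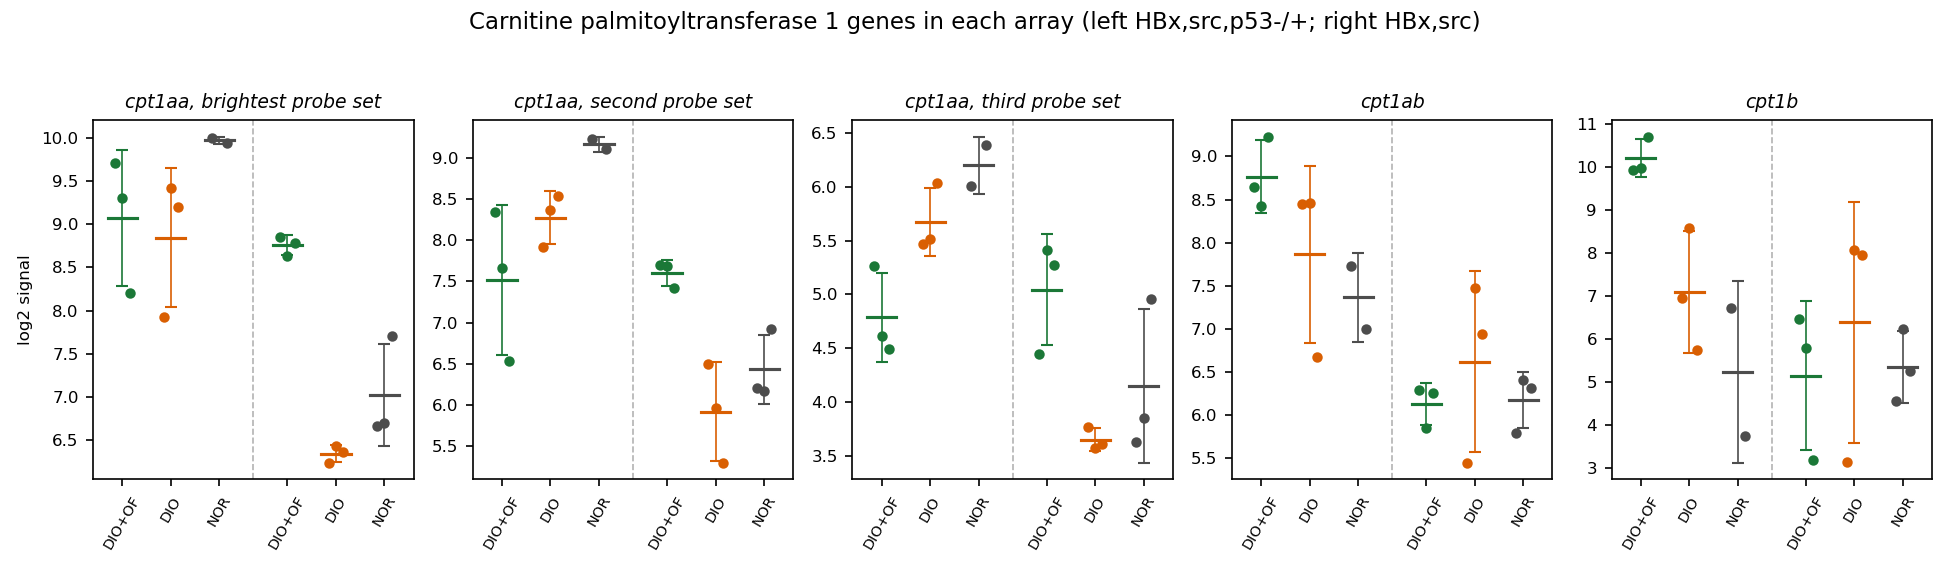
Log2 signal (vertical axis) in each array of the 3 probe sets of cpt1aa, of cpt1ab and of the muscle-type cpt1b, with DIO+OF, DIO and NOR from left to right and HBx,src,p53-/+ left of HBx,src (points, arrays; thick lines, group means; bars, SD). All 3 probe sets of cpt1aa are higher in DIO+OF than in DIO in HBx,src, while in HBx,src,p53-/+ the third is lower, and cpt1b spans 3.13 to 8.06 in HBx,src.

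The last step of the shuttle, cpt2, which hands the acyl group back to coenzyme A in the matrix, read 6.27, 5.41 and 6.60 in DIO+OF, 5.87, 6.41 and 5.95 in DIO and 6.80 and 6.79 in NOR arrays of HBx,src,p53-/+. Both overfed groups lay below NOR. Signals of cpt2 in HBx,src were 5.94, 6.09 and 6.22 in DIO+OF, 5.92, 5.07 and 5.61 in DIO and 5.92, 5.16 and 6.38 in NOR arrays. The DIO+OF arrays were above the DIO arrays by a narrow margin, and within the NOR range. The change with OF was 0.02 ± 0.34 in HBx,src,p53-/+ and 0.55 ± 0.34 in HBx,src, neither called.

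The acyl-CoA dehydrogenases take the first step of each round, acadvl on very long, acadl on long and acadm on medium chains in mammals. Signals of acadl in HBx,src,p53-/+ were 8.80, 8.53 and 8.86 in DIO+OF arrays, 7.52, 8.20 and 7.73 in DIO arrays and 8.61 and 8.33 in NOR arrays. DIO was the low group, with no overlap with either of the others. Signals of acadl in HBx,src were 7.87, 7.56 and 7.87 in DIO+OF arrays, 7.91, 8.26 and 8.38 in DIO arrays and 7.38, 7.64 and 8.16 in NOR arrays. There DIO was the highest group by its mean, and its arrays were all above the DIO+OF arrays.

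The change of acadl with OF was 0.91 ± 0.23 in HBx,src,p53-/+ (adjusted p = 0.0706 in limma) and -0.42 ± 0.23 in HBx,src (adjusted p = 0.543). The difference between the lines was 1.33 ± 0.33 and missed the threshold (adjusted p = 0.0826 in limma). A second, dimmer probe set of acadl gave 0.20 ± 0.34 and -0.65 ± 0.34, with an overlap of the arrays in HBx,src,p53-/+.

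For acadvl the HBx,src,p53-/+ signals were 9.62, 9.49 and 9.91 in DIO+OF, 8.90, 9.46 and 8.46 in DIO and 9.74 and 8.33 in NOR arrays. The 2 NOR arrays lay on either side of most others. In HBx,src they were 8.13, 8.26 and 7.80 in DIO+OF, 7.93, 8.80 and 8.79 in DIO and 7.91, 8.20 and 8.81 in NOR arrays, all 3 groups overlapping. The difference of acadvl with OF was 0.74 ± 0.38 in HBx,src,p53-/+ and -0.44 ± 0.38 in HBx,src.

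The gene acadm had the narrowest range of the 10, 0.73 on the log2 scale over the HBx,src,p53-/+ arrays and 0.66 over the HBx,src arrays. It read 9.68, 9.62 and 10.08 in DIO+OF, 9.35, 9.48 and 9.54 in DIO and 9.63 and 9.45 in NOR arrays of HBx,src,p53-/+, and 8.86, 8.85 and 9.07 in DIO+OF, 8.92, 9.0 and 9.28 in DIO and 8.69, 8.62 and 9.05 in NOR arrays of HBx,src. The change with OF was 0.33 ± 0.18 in HBx,src,p53-/+, where the arrays did not overlap, and -0.14 ± 0.18 in HBx,src. A dimmer probe set gave 0.86 ± 0.29 and 0.02 ± 0.29.

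The mitochondrial trifunctional protein carries out the next 3 reactions on long chains. Its alpha subunit, hydratase and dehydrogenase, is encoded by hadhaa, and its beta subunit, the thiolase, by hadhb. The genes hadhaa and hadhb are next to each other in the RefSeq annotation of the assembly GRCz12tu. Signals of hadhaa in HBx,src,p53-/+ were 9.59, 9.48 and 9.52 in DIO+OF arrays, 8.28, 9.02 and 8.61 in DIO arrays and 9.29 and 9.22 in NOR arrays. The 3 groups did not overlap, with DIO+OF at the top and DIO at the bottom. Signals of hadhaa in HBx,src were 7.77, 7.56 and 8.33 in DIO+OF, 7.28, 7.71 and 7.47 in DIO and 7.08, 6.62 and 7.50 in NOR arrays, where DIO+OF lay above NOR and overlapped DIO.

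The difference of hadhaa with OF was 0.89 ± 0.26 in HBx,src,p53-/+ (adjusted p = 0.109 in limma) and 0.40 ± 0.26 in HBx,src, the same direction in both. The signals of hadhb were 10.94, 10.47 and 10.46 in DIO+OF, 8.96, 10.02 and 9.60 in DIO and 10.51 and 10.05 in NOR arrays of HBx,src,p53-/+. DIO lay below both other groups. In HBx,src they were 8.33, 8.79 and 9.55 in DIO+OF, 7.84, 9.25 and 8.79 in DIO and 8.30, 8.67 and 10.09 in NOR arrays, a spread within groups that exceeded any difference between their means. The change of hadhb with OF was 1.1 ± 0.48 in HBx,src,p53-/+, a fold of 2.14 and the highest of the 10 there, though not called (adjusted p = 0.299 in limma), and 0.26 ± 0.48 in HBx,src. Across the 8 HBx,src,p53-/+ arrays 39 of the 45 pairs among the 10 genes had a positive Pearson r, with a median of 0.55. In the 9 HBx,src arrays 31 of 45 pairs did, with a median of 0.27. These arrays share their groups, so the correlations hold the group differences as well.

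Electron transfer flavoprotein takes the electrons of the acyl-CoA dehydrogenases, and its alpha subunit is encoded by etfa. The enzyme that passes them on to ubiquinone in the inner membrane is encoded by etfdh. Signals of etfdh in HBx,src,p53-/+ were 7.82, 7.78 and 7.91 in DIO+OF arrays, 6.88, 6.91 and 7.01 in DIO arrays and 7.49 and 7.11 in NOR arrays. The groups did not overlap, and the arrays of DIO+OF, like those of DIO, lay close together. Signals of etfdh in HBx,src were 5.83, 6.26 and 6.00 in DIO+OF, 6.75, 6.23 and 6.28 in DIO and 6.25, 6.00 and 6.76 in NOR arrays, with overlap of all groups.

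The rise of etfdh with OF in HBx,src,p53-/+ was 0.91 ± 0.21, or 1.88-fold (n = 3 and 3, adjusted p = 0.0491 in limma). This was the only call among the 10 in that comparison, and it was lost when the line was fitted alone (adjusted p = 0.0795) and without any 1 of 14 of the 17 arrays. It was kept without HBx,src NOR replicate 2 or 3 or HBx,src DIO replicate 1. Without replicate 3 of DIO+OF the change was 0.87 ± 0.24 and not called (adjusted p = 0.156). In HBx,src the change was -0.39 ± 0.21, and the difference between the lines was 1.30 ± 0.30 (adjusted p = 0.0636 in limma). No difference of the OF effect between the lines was called for the 10 in limma (1.3% of all genes were called) and 4 had an unadjusted p under 0.05 (18.2% of all genes), namely cpt1aa, acadvl, acadl and etfdh.

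For etfa the HBx,src,p53-/+ signals were 10.51, 10.30 and 10.39 in DIO+OF, 9.51, 9.73 and 10.11 in DIO and 10.44 and 10.38 in NOR arrays. DIO+OF and NOR arrays lay in the same range and the DIO arrays below it. In HBx,src they were 8.50, 8.74 and 9.34 in DIO+OF, 8.63, 8.54 and 8.57 in DIO and 9.34, 8.68 and 9.37 in NOR arrays, the DIO arrays again below the NOR arrays. The difference of etfa with OF was 0.62 ± 0.24 in HBx,src,p53-/+ and 0.28 ± 0.24 in HBx,src, neither called.

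**Figure D3:**
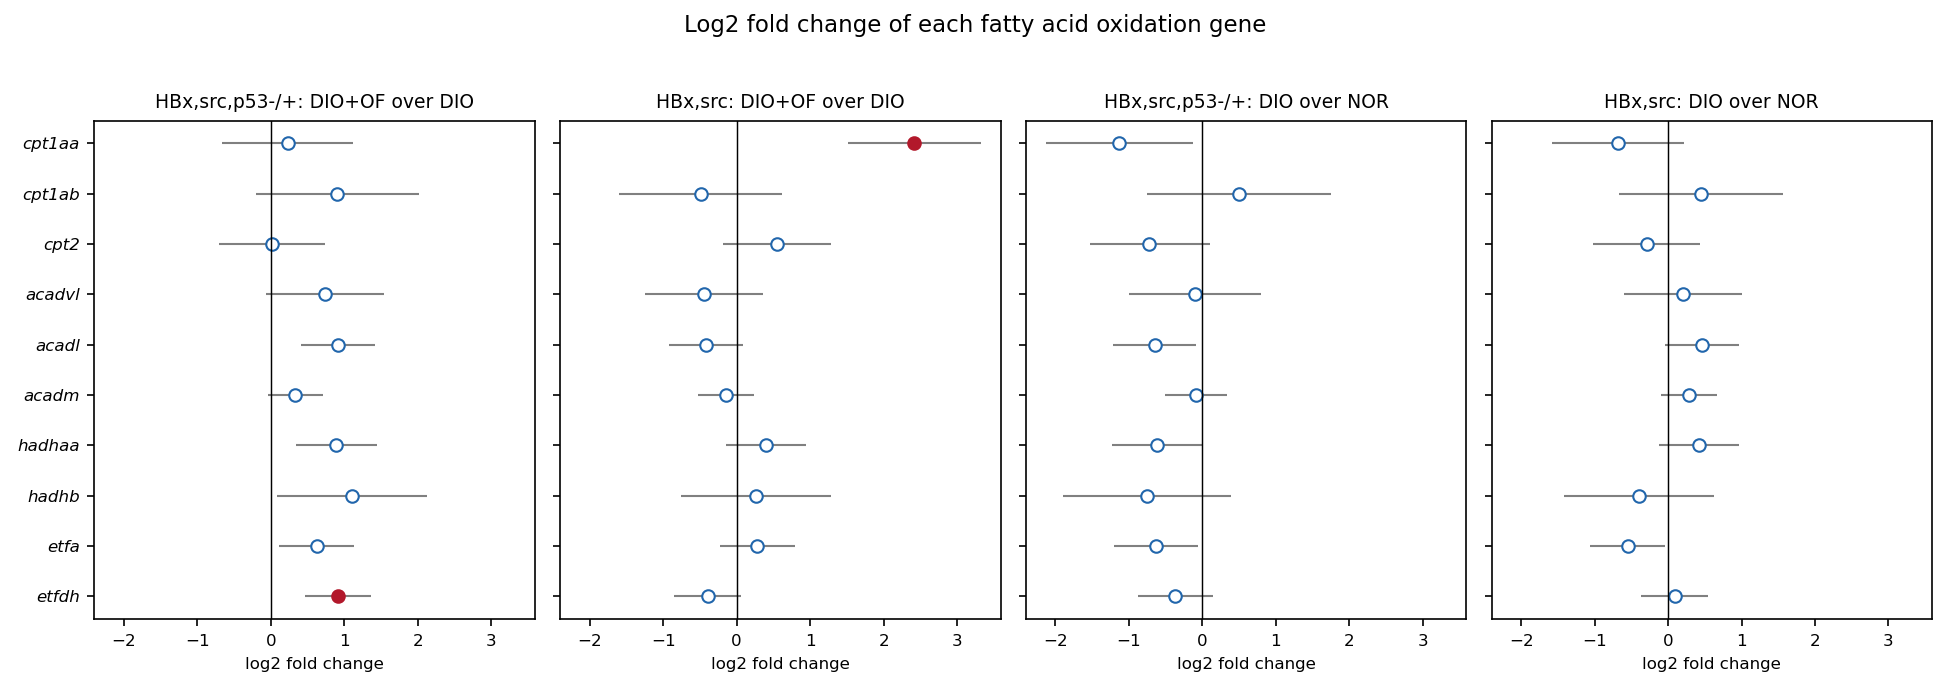
Log2 fold change (horizontal axis) of each of the 10 genes in 4 comparisons, with 95% intervals of the limma fit, filled red where the adjusted p was under 0.05. With OF in HBx,src,p53-/+ all 10 points lie above 0 and etfdh is called, and in HBx,src cpt1aa stands alone at 2.42.

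The overfeeding contrast shares its DIO arrays with the OF contrast, so high or low DIO arrays move both, in opposite directions. In HBx,src,p53-/+, 9 of the 10 genes had a lower mean in DIO than in NOR, cpt1ab being the exception, with a median log2 fold change of -0.63 against -0.01 over all genes, of which 50.7% were below 0. No gene of the 10 was called lower in DIO in limma (1.8% of all genes were) and 4 had an unadjusted p under 0.05 (19.1% of all genes), namely cpt1aa, acadl, hadhaa and etfa. The arrays of 7 lay lower in DIO without overlap, as did 22.7% of all genes, where only 2 NOR arrays make a separation easier. The largest change was -1.13 ± 0.47 for cpt1aa (adjusted p = 0.236 in limma). In HBx,src the median was 0.14, against -0.02 over all genes, with 6 above 0 (47.9% of all genes), no call in limma (0% of all genes), 1 unadjusted p under 0.05 (7.56% of all genes; etfa, -0.55 ± 0.24), and 2 genes lower in DIO without overlap, cpt1aa and etfa, against 7.73% of all genes. No difference of the overfeeding effect between the lines was called in limma for the 10 (0.0622% of all genes were), and 2 had an unadjusted p under 0.05 (10.5% of all genes). The lowest were -1.11 ± 0.35 for acadl and -1.04 ± 0.38 for hadhaa.

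Set against the normal diet, DIO+OF livers of HBx,src,p53-/+ had a median of 0.27 over the 10 genes, against 0.03 over all genes, with no call in limma, where 3.4% of all genes were called higher and 2.9% lower. An unadjusted p under 0.05 was found for cpt1ab and etfdh, 2 of 10, and for 22.1% of all genes. In all, 3 genes lay higher without overlap, cpt1ab, hadhaa (0.27 ± 0.29) and etfdh (0.54 ± 0.24), and 2 lower, cpt1aa (-0.90 ± 0.47) and cpt2 (-0.70 ± 0.38), when 19.9% of all genes were higher and 19% lower in this way. Without replicate 3 of DIO+OF the median was 0.24, still with 3 genes higher and 2 lower without overlap (26.8% and 26.2% of all genes). Of the 10, only cpt2 (-0.96 ± 0.39) then had an unadjusted p under 0.05 in limma, as did 19.4% of all genes. In this refit cpt1aa gave -0.47 ± 0.43, cpt1ab 1.17 ± 0.64 and etfdh 0.51 ± 0.27. In HBx,src the median was 0.00, with no call in limma (0.11% of all genes were called higher) and 2 unadjusted p under 0.05 (10.5% of all genes), and cpt1aa and hadhaa (0.82 ± 0.26) lay higher without overlap, as did 5.95% of all genes. By their means, DIO was the lowest of the 3 groups for 9 of the 10 genes in HBx,src,p53-/+ and DIO+OF the highest for 7. In HBx,src, DIO was the lowest for 4 and the highest for 5. By the study's threshold, at least a 2-fold change and an unadjusted p under 0.05, cpt1aa was lower in DIO than in NOR in HBx,src,p53-/+ (6.59% of all genes). With OF in HBx,src,p53-/+, etfdh at 1.88-fold was not past it and hadhb at 2.14-fold was (5.48% of all genes higher). Without replicate 3 of DIO+OF, hadhb had an unadjusted p of 0.0519 in limma and was not past it. With OF in HBx,src, cpt1aa was past it, and 1153 of all 20908 genes were higher by this threshold. By the same threshold, DIO+OF against NOR gave cpt1ab higher in HBx,src,p53-/+ (6.82% of all genes) and cpt1aa higher in HBx,src (2.77%). The difference of the OF effect then had 3 genes above 0, acadvl, acadl and etfdh (7.1% of all genes), and 1 below, cpt1aa (6.22%), and that of the overfeeding effect 2 below, acadl and hadhaa (4.23%).

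Around the 10 genes, 44 others of fatty acid oxidation could be matched out of a list of 47, in 9 roles. Their median change with OF was 0.61 in HBx,src,p53-/+, 36 of 44 were above 0, and in 22 the DIO+OF arrays lay above all DIO arrays and in none below. In limma 3 were called higher. Over all genes 53.9% were above 0, 15% separate higher, 9.19% separate lower and 1.71% called higher. In HBx,src the median was -0.13, 18 of 44 were above 0, 6 lay higher and 4 lower without overlap, and 1 was called higher, against 48.7% of all genes above 0, 9.66% separate higher, 8.55% separate lower and 0.488% called higher. Without replicate 3 of DIO+OF, the HBx,src,p53-/+ median was 0.42, with 36 above 0, 22 higher and 2 lower without overlap, and 2 called, against 52.6% of all genes above 0, 19% separate higher, 13.6% separate lower and 0.517% called higher. For DIO against NOR the 44 had a median of -0.06 in HBx,src,p53-/+, with 25 below 0 (50.7% of all genes). In HBx,src it was 0.14, with 30 above 0 (47.9% of all genes).

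The 3 genes called with OF in HBx,src,p53-/+ belong to ketone body, glucose and branched-chain amino acid handling as much as to fat. The gene bdh1, whose mitochondrial enzyme interconverts the ketone bodies acetoacetate and hydroxybutyrate, read 7.14, 7.92 and 8.36 in DIO+OF, 6.12, 5.78 and 6.06 in DIO and 5.83 and 6.07 in NOR arrays. The rise over DIO was 1.82 ± 0.30, or 3.53-fold (adjusted p = 0.00876 in limma), and that over NOR 1.85 ± 0.33 (adjusted p = 0.00964). The gene pdk2b encodes a kinase of the family that switches off pyruvate dehydrogenase, and read 9.58, 9.35 and 9.23 in DIO+OF, 5.62, 7.37 and 6.45 in DIO and 6.94 and 6.28 in NOR arrays.

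It rose 7.51-fold over DIO, 2.91 ± 0.51 on the log2 scale (pdk2b, adjusted p = 0.0136 in limma), and by 2.77 ± 0.57 over NOR (adjusted p = 0.0183). In HBx,src pdk2b lay at 1.50 to 3.89, where the array medians were 2.095 to 2.212. The calls of bdh1 and pdk2b over DIO were kept whichever array was left out, though the count of called genes in the wider list ranged from 1, with the line fitted alone, to 9 at the study's threshold under the other settings. Over NOR, bdh1 was no longer called without either NOR array of the line (adjusted p = 0.0690 without replicate 1 and 0.0540 without replicate 2), and pdk2b without NOR replicate 1 (0.0561), NOR replicate 2 (0.159) or DIO+OF replicate 2 (0.0522). The third, ivd, encodes isovaleryl-CoA dehydrogenase of leucine breakdown and rose by 1.14 ± 0.26 (adjusted p = 0.0426 in limma), a call kept without 4 of the 17 arrays, namely HBx,src NOR replicates 2 and 3, HBx,src DIO replicate 2 and HBx,src,p53-/+ DIO+OF replicate 1, and lost without each of the other 13 (adjusted p up to 0.152).

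By role, all 8 genes of hydration to thiolysis and all 6 peroxisomal genes had a higher mean in DIO+OF of HBx,src,p53-/+, at medians of 0.78 and 0.63, and none was called. The arrays were separate for 6 and 5 of them, and for 15% of all genes. Without replicate 3 of DIO+OF the medians were 0.61 and 0.43, with the same counts above 0 and separate (19% of all genes). Among them were decr1, which reduces double bonds of unsaturated chains (1.34 ± 0.38, adjusted p = 0.107 in limma), eci2, which shifts them (0.79 ± 0.20, adjusted p = 0.0621), and scp2a of the peroxisome (0.96 ± 0.23, adjusted p = 0.0600). The 5 regulators were all above 0, at a median of 1.11, with pparaa, a gene of the receptor Ppara, at 1.04 ± 0.41 (adjusted p = 0.248 in limma). Without replicate 3 of DIO+OF all 5 were still above 0 (52.6% of all genes), at a median of 0.64, and pparaa gave 0.87 ± 0.46. In HBx,src the medians of hydration to thiolysis and of the peroxisomal genes were -0.48 and -0.12, and decr1 gave -0.84 ± 0.38.

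The peroxisomal carnitine acyltransferase crot, which makes carnitine esters of shortened chains, read 8.89, 8.68 and 9.06 in DIO+OF, 8.14, 8.09 and 7.43 in DIO and 7.62 and 6.61 in NOR arrays of HBx,src,p53-/+. It rose by 1.77 ± 0.30 over NOR (adjusted p = 0.00705 in limma), and without NOR replicate 2, the lower of both, this call was lost (adjusted p = 0.0876). Over DIO the change of crot was 0.99 ± 0.27 and not called (adjusted p = 0.0876 in limma). Signals of crot in HBx,src were 7.03, 6.41 and 6.65 in DIO+OF and 7.27, 7.38 and 7.36 in DIO arrays, all DIO+OF arrays lower (-0.64 ± 0.27).

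Fatty acid activation comes before the shuttle. Long-chain acyl-CoA synthetases make the acyl-CoA that carnitine palmitoyltransferase 1 uses. In HBx,src all 7 had a higher mean in DIO+OF than in DIO, at a median of 0.93, and the arrays of 4 were separate, where 48.7% of all genes were above 0 and 9.66% separate higher. Some of the 7 had low signals there: acsl1a, acsl3a and acsl4b had DIO means of 2.87, 1.82 and 2.65, with array medians of 2.095 to 2.212. The called one, acsl4a, read 8.75, 9.37 and 9.45 in DIO+OF, 7.48, 6.45 and 7.49 in DIO and 7.33, 7.21 and 7.66 in NOR arrays. It rose by 2.05 ± 0.34 (adjusted p = 0.0264 in limma), a call lost without HBx,src DIO replicate 2 or 3 or DIO+OF replicate 2 or 3 (adjusted p up to 0.108).

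Another of them, acsl1b, read 8.49, 8.22 and 8.17 in DIO+OF and 6.08, 4.26 and 4.45 in DIO arrays of HBx,src, a change of 3.36 ± 0.92 that was not called (adjusted p = 0.134 in limma). The activation genes had a median of -0.06 in HBx,src,p53-/+, and acsl1b read 9.36, 7.87 and 4.93 in DIO+OF and 7.94, 9.50 and 10.18 in DIO arrays. The lowest of these, 4.93, was replicate 3, the array with the low vtg2 signal, where acsl5 also read 2.06 against 8.31 and 7.36 in the other DIO+OF arrays. Without that array acsl1b gave -0.59 ± 0.74 and acsl5 -0.31 ± 0.53, in place of -1.82 ± 0.92 and -2.24 ± 1.14.

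**Figure D4:**
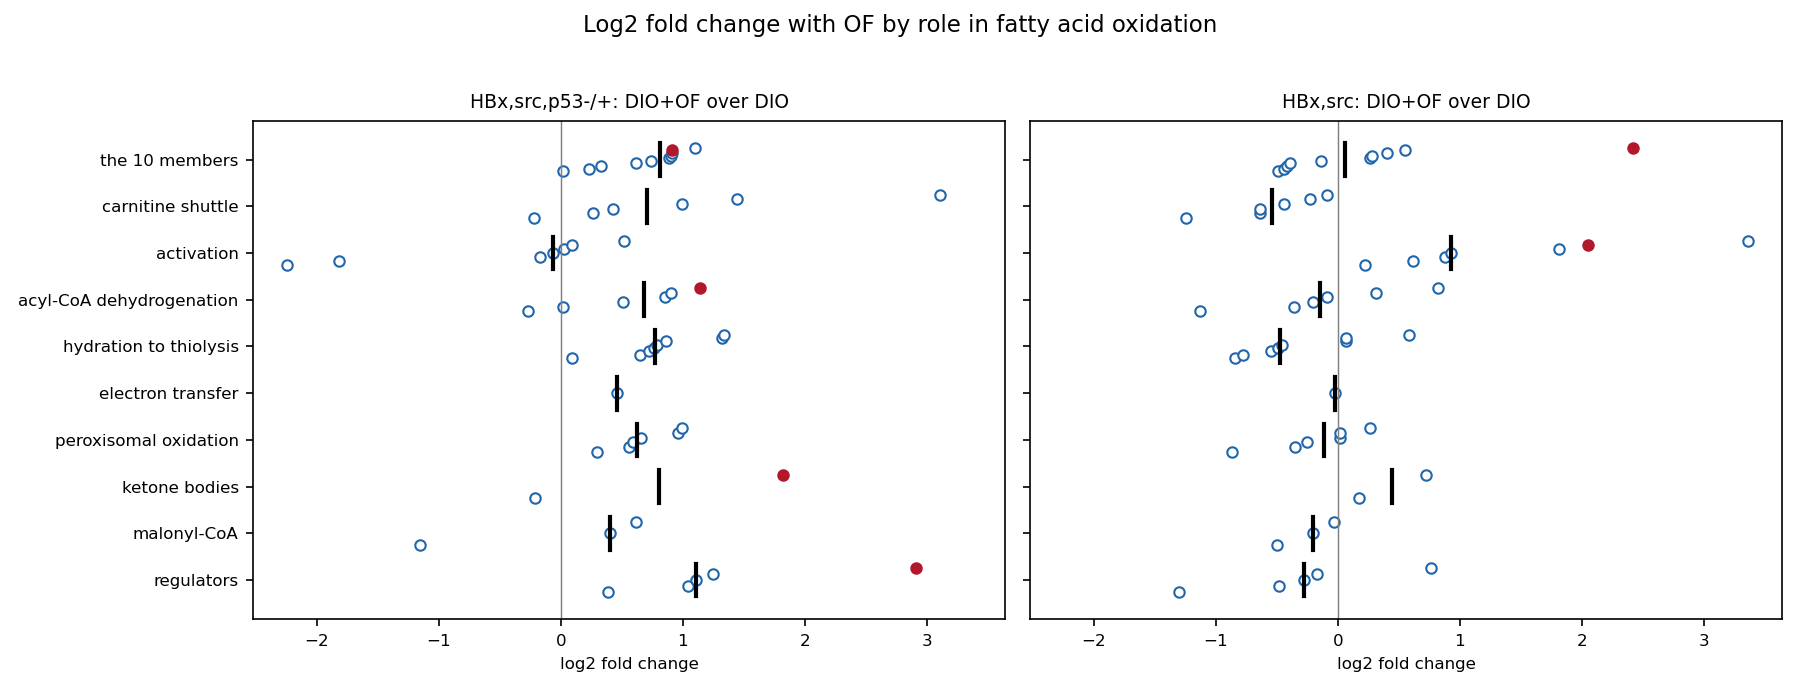
Log2 fold change with OF (horizontal axis, DIO+OF over DIO) of the 10 genes and of the 44 further genes by role, where points are genes, red points are called and bars are medians. In HBx,src,p53-/+ the medians are above 0 except for activation at -0.06, and in HBx,src activation is the role with the highest median, 0.93.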

How the data were processed

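Total RNA of 17 liver samples was read on ZebGene 1.1 ST arrays. The authors deposited 1 log2 signal per probe set and array; Transcriptome Analysis Console is named in the submitters' processing notes, while for summarisation, normalization and build the sources used here name nothing further. Of 75212 probe sets, 30358 had 1 gene symbol, 1015 several and 43839 none listed; 14289 equal another in all values, none of the 10 genes among them.

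With limma 3.58.1 in R 4.3.3, each of the 6 groups was given its own mean in 1 model of the 17 arrays, with variances moderated by eBayes, which the study's methods name (11 residual and 2.67 prior degrees of freedom), and contrasts were taken within each line and between lines. P-values were adjusted by Benjamini-Hochberg over all probe sets. The methods' threshold, at least 2-fold and unadjusted p under 0.05, was an alternative, as were the line alone, quantile normalization, centring, a filter on the dimmest 40%, other probe set rules, a block for the replicate number, a trended prior, weights for arrays and leaving out each array. The alternatives for the wider list, and all values without the array with the low vtg2 signal other than the 10 genes' leave-one-out values, were chosen after seeing the data. On simulated data with independent noise, the fit was checked only for the size of planted changes, and no bound was set on false or missed calls. Figures used Python 3.11.15 and matplotlib 3.10.9.

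The 10 genes, the wider list and the markers were chosen with earlier results of these data known. All 10 are described; of the wider list, the called genes and up to 3 per role with the smallest p were eligible, and cpt1aa and cpt1ab were compared with the 5 named genes of highest Pearson r. Promoter and probe sequences were not used here.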

Additional observations from a re-analysis of the deposited data

Results flagged for a closer look

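Several changes ran in opposite directions in the lines, or differed between them by the test of the difference. This difference is the change in HBx,src,p53-/+ minus that in HBx,src, where line and batch cannot be told apart. The items were picked for this pattern from the genes above, their other probe sets and the wider list. The share of all genes with the pattern was not counted, so whether these genes exceed it was not tested. With OF, 15% of all genes were separate higher and 9.19% lower in HBx,src,p53-/+, against 9.66% and 8.55% in HBx,src. For overfeeding these were 16.4% and 22.7%, against 5.91% and 7.73%. For OF, the brightest probe set of acadl differed by 1.33 (adjusted p = 0.0826 in limma), with arrays that were all higher with OF in HBx,src,p53-/+ and all lower in HBx,src. Likewise the difference was 1.63 for crot (adjusted p = 0.0654), 1.86 for ehhadh, a peroxisomal hydratase and dehydrogenase (adjusted p = 0.0570), and 0.60 for mlycd, malonyl-CoA decarboxylase (adjusted p = 0.340), all 3 in limma and none past the threshold. In HBx,src mlycd had low signals, 2.21 to 2.7 over all arrays of the line, whose array medians were 2.095 to 2.212. The second, dimmer probe set of acadl differed by 0.85 ± 0.48 (adjusted p = 0.507 in limma), and its arrays overlapped in HBx,src,p53-/+. The third probe set of cpt1aa differed by -2.28, which passed the threshold (adjusted p = 0.0496 in limma), while the brightest probe set of that gene did not. The third was not refitted without the array with the low vtg2 signal. For overfeeding, arrays that were all lower in DIO in HBx,src,p53-/+ and all higher in HBx,src were seen for ehhadh, with a difference of -1.64 (adjusted p = 0.178 in limma), and for hadh, the short-chain hydroxyacyl-CoA dehydrogenase, with -1.14 (adjusted p = 0.292). The contrasts of OF and overfeeding share their DIO arrays, so the values of ehhadh are not independent.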

How the results depend on the processing

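Of 2140 values of the 10 genes under the alternatives, 2094 kept their side of the threshold, 28 were no longer called, 18 were newly called and 45 changed sign, none of them a called value. With OF in HBx,src the count of called genes was 1, and 0 in the line alone and with the replicate number as a block; leaving out arrays gave 0 to 1, with cpt1aa lost without DIO replicate 1, 2 or 3 or DIO+OF replicate 2 or 3 (adjusted p = 0.0682 to 0.108), and a median of -0.17 to 0.18. With OF in HBx,src,p53-/+ the count was 1, and 0 in the line alone, with quantile normalization, without the dimmest 40%, with a trended prior, with array weights and with the replicate block; it was 2, etfdh and acadl, with 1-symbol probe sets only, and 0 to 1 when arrays were left out. At the methods' threshold it stayed at 1, with hadhb in place of etfdh. The call of etfdh was kept without HBx,src NOR replicate 2, NOR replicate 3 or DIO replicate 1 and lost without each of the other 14 arrays (adjusted p = 0.0529 to 0.156); without HBx,src,p53-/+ DIO replicate 2, acadl was called instead (adjusted p = 0.0458). The difference of the OF effect gave 0, against 1 with quantile normalization, 2 with 1-symbol probe sets, 1 with the mean over probe sets and 4 at the methods' threshold, and 0 to 1 with a median of 0.48 to 0.88 when arrays were left out. At the methods' threshold 1 gene was called for overfeeding in HBx,src,p53-/+ and for DIO+OF against NOR in each line (1 and 1), and 2 for the difference of the overfeeding effect. In the wider list, OF in HBx,src,p53-/+ called 3 genes, 1 in the line alone and 6 with 1-symbol probe sets. It called 9 at the methods' threshold, all higher (5.48% of all genes), and 2 to 4 under the remaining settings and with arrays left out. OF in HBx,src called 1, and 0 in the line alone and with the replicate block. At the methods' threshold it called 2 higher and 1 lower, against 1153 and 447 of all 20908 genes. DIO+OF against NOR in HBx,src,p53-/+ called 3, all higher, where 3.4% of all genes were called higher and 2.9% lower. This count was 2 to 10 under other settings and 0 to 6 with arrays left out. At the methods' threshold 8 were higher and 2 lower, against 1426 and 1490 of all 20908 genes. The replicate numbers share only a number, with correlations of deviations of -0.08 to 0.10, and the block changed no other call of the 10 genes. Centring arrays moved the median of all genes with OF in HBx,src,p53-/+ to 0.11, where the 10 genes had 0.88. The cause of these differences was not tested. Shares of all genes called were not counted for the line alone, for 1-symbol probe sets or for most other alternatives. With 1-symbol probe sets the adjustment runs over 30358 probe sets in place of 75212. The number of arrays limits what could be called.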

Other observations

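Among the 10 genes the range over the arrays of a line was widest for cpt1ab in HBx,src,p53-/+ (2.55 on the log2 scale), followed by cpt1aa (2.09) and hadhb (1.98), and for cpt1aa in HBx,src (2.63), followed by hadhb (2.25) and cpt1ab (2.03). Within the 9 HBx,src arrays, hadhb was the one gene of the 10 with a positive Pearson r with all 9 others. Over the 8 HBx,src,p53-/+ arrays this held for acadl, hadhaa and hadhb, with medians of 0.75, 0.67 and 0.64. How often this occurs among other genes was not counted. The next values were chosen after they were seen. One HBx,src array, DIO+OF replicate 3, read 4.21 for acadsb, the short and branched-chain acyl-CoA dehydrogenase, where the other HBx,src arrays read 6.70 or more. The gene acacb, whose enzyme makes malonyl-CoA at the mitochondrion, read 4.88, 7.04 and 8.90 in the DIO arrays of HBx,src, with replicate 1 the low one, as it was for cpt1ab and cpt1b.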
